A study of Mus musculus with 6 samples.

Results

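The Hox genes encode homeodomain transcription factors and lie in 4 clusters, Hoxa on chromosome 6, Hoxb on chromosome 11, Hoxc on chromosome 15 and Hoxd on chromosome 2 of the mouse. They were followed here as every probe set of the array whose only gene symbol in the platform annotation is a Hox gene of cluster a, b, c or d with its paralog number. That gave 48 of 45037 probe sets, for 33 of the 39 Hox genes in RefSeq, with 22 genes read by 1 probe set and 11 by several. The other Hox genes have no probe set of their own in this selection. Members were picked by symbol, but the family itself was chosen on measured values, namely the log2 differences between genotypes on these same arrays, among them that of a Hoxa5 probe set. The genotype differences below are therefore a description and support nothing on their own.

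RNA came from palates microdissected at E13.5 and each sample was read on an Affymetrix Mouse430_2 array. There were 3 Fz1-/-; Fz2-/- samples, called double-null, and 3 Fz1-/-; Fz2+/+ samples, called Fz1-null, numbered 1 to 3 in each group. Embryos of both groups lacked Fz1, the Wnt receptor Frizzled 1 encoded by Fzd1, so the comparison shows loss of Frizzled 2 (Fzd2) on a Fz1-null background, with no wild-type palate beside it. Per the labels the embryos were of a C57BL6/129 mixed background and of mixed gender, and they name no embryo, litter or pool. A p-value here thus reflects how far these 6 samples scatter, and that scatter may be technical.

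Within a cluster, Hox genes are expressed along the body axis in the order in which they lie on the chromosome. Genes with low paralog numbers reach farthest towards the head, into the hindbrain and the pharyngeal arches behind the first, and genes with high numbers mark the lower trunk, the limbs and the tail. The palatal shelves grow from the maxillary part of the first arch, whose neural crest cells are known as Hox-negative. Genes of the same number in different clusters are paralogs, descended from one ancestral gene, and often share their domains.

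The promoters below are shown because their genes had a probe set at least 1 log2 unit higher in the double-null than in the Fz1-null array numbered 3, the pattern described further on. Hoxd9, which differed by less than 0.1 in each pair, is set beside them. Each is the 250 bases before the transcription start of the RefSeq table, build GRCm38.p6, written 5′ to 3′ on the strand of the gene, and capitals mark a match to one of the motifs given after the sequences. The array values themselves carry no coordinates. Hoxb2, Hoxb3, Hoxb5 and Hoxb6, which showed the same pattern, had no entry in that table.
Hoxa3 (chr6:52213068-52213317, minus strand): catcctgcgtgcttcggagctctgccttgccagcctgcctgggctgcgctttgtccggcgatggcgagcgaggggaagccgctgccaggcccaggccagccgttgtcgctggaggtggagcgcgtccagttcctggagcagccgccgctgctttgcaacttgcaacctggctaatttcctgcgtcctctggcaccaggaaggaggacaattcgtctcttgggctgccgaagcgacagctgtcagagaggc
Hoxa5 (chr6:52204588-52204837, minus strand): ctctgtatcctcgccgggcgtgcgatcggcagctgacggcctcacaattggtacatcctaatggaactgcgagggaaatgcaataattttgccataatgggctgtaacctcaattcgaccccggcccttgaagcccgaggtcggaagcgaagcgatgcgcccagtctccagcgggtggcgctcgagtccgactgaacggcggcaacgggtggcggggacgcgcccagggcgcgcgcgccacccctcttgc
Hoxc4 (chr15:103034145-103034394, plus strand): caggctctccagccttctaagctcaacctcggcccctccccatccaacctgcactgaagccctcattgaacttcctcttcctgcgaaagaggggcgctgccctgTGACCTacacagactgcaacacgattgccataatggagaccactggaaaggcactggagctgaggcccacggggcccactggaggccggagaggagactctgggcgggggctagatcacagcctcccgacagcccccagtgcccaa
Hoxd3 (chr2:74711743-74711992, plus strand): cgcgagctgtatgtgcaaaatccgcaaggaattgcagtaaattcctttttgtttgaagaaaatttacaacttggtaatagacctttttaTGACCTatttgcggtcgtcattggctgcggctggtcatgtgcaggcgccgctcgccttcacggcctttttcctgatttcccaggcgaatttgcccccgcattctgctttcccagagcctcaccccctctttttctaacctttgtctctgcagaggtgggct
Hoxd9 (chr2:74697513-74697762, plus strand): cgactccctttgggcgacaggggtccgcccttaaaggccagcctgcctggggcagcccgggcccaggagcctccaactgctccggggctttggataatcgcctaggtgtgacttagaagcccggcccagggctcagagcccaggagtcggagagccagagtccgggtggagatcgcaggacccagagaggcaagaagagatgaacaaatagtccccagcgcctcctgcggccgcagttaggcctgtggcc

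Motifs were searched on both strands of 21 such windows of 19 member genes and of all 32851 windows of the table. The nuclear receptor half-site AGGTCA, marked above in Hoxc4 and Hoxd3 as its reverse complement, was in 5 Hox windows (23.8%), those of Hoxb4, Hoxc4, Hoxd3, Hoxd8 and Hoxd10, and in 14.02% of all windows. A direct repeat of that half-site, the DR5 form of retinoic acid response element, which contains the half-site, was in 0 Hox windows and in 3 of all windows. The homeodomain core TAATTA was in 2 Hox windows, both of Hoxd11 (9.52%, against 4.84% of all), the Hox-Pbx composite TGATTNAT in 2 (9.52% against 2.83%) and the TATA box core TATAAA in 2 (9.52% against 12.4%). Of the 5 windows printed, 3 held no match and 2 held 1 each. The Hox windows had a median GC content of 59.2%, and all windows 52.4%. These matches are letters in a window and no evidence of binding.

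One array stood apart over all probe sets, whatever their gene. Double-null array 3 held the highest value of the 6 arrays for 24.6% of all probe sets, and each other array for 14.2% to 16.7%. By at least 0.5 log2 units it was highest for 139 probe sets, against 6 to 44 on the other arrays. The main counts and most named differences below are therefore given with and without that array or both arrays numbered 3. Fzd2, the gene that differs by genotype, read 10.21, 10.53 and 10.20 in double-null arrays 1, 2 and 3, against 11.46, 11.60 and 11.64 in Fz1-null arrays by its brightest probe set (difference -1.25, SE 0.11, limma adjusted p = 0.217, and 0.00889 with the replicate number as a block). Its other 2 probe sets were likewise lower in all 3 pairs, so double-null array 3 did not go against its label. Which part of Fzd2 is deleted is not given in the sources used here. Fzd1, targeted in both groups, averaged 4.35 in double-null and 4.39 in Fz1-null palates by one probe set and 7.47 and 7.39 by the other.

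Most Hox probe sets read low on every array. Of the 48, 33 lay below the array median of all probe sets (7.22 to 7.27) on all 6 arrays, 5 lay above it on all 6, and 7 lay below it on 5 arrays and above it on double-null array 3. Values over all members and arrays ran from 3.50 to 8.89 on the log2 RMA scale. RMA gives no call of presence, and probe sets differ in affinity, so a level places a probe set on the scale and does not rank Hox genes by abundance. The brightest member of each cluster over 6 arrays was Hoxa5 by probe set 1443803_x_at (mean 8.07), Hoxb3 by 1427605_at (7.52), Hoxc6 by 1427361_at (7.55) and Hoxd9 by 1419126_at (6.77).

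Across genotypes, no Hox probe set passed the test. With limma and Benjamini-Hochberg adjustment over 45037 probe sets, 0 of 48 had an adjusted p under 0.05, where the share of all probe sets called was 0%, and the adjusted p was 1.00 for each member. Unadjusted, 1 of 48 lay under 0.05, where 0.957% of all probe sets did. With the replicate number as a block, 0 of 48 members and 0.00666% of all probe sets passed, the 3 of Fzd2, and the smallest adjusted p of a member was 0.966. Under that block 12 members lay under an unadjusted 0.05, beside 4.71% of all probe sets. Since the family was chosen with this contrast known, nothing is read from these counts.

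The members leaned to higher readings in double-null palates, and the median of their differences was smaller without double-null array 3. By mean difference 40 of 48 were higher and 8 lower, with a median log2 difference of 0.14, while 47.9% of all probe sets were higher, with a median near 0. The medians of the 3 pairs were 0.11, -0.022 and 0.25. Higher in the double-null array were 42 members in the pair numbered 1 (49.9% of all probe sets), 21 in the pair numbered 2 (48.4%) and 42 in the pair numbered 3 (48.3%). Without double-null array 3 the count was 29 of 48 and the median 0.023, and without both arrays numbered 3 it was 31 and 0.053. Higher by at least 0.5 in the double-null array were 2 members in the pair numbered 1 (0.175% of all probe sets), 0 in the pair numbered 2 (0.451%) and 19 in the pair numbered 3 (0.686%). Higher by at least 1 were 0 members in the pairs numbered 1 and 2 (0.0155% and 0.0799% of all probe sets) and 9 members in the pair numbered 3 (0.0888%). Of the members, 0 were lower by 1 or more in any pair.

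**Figure D1:**
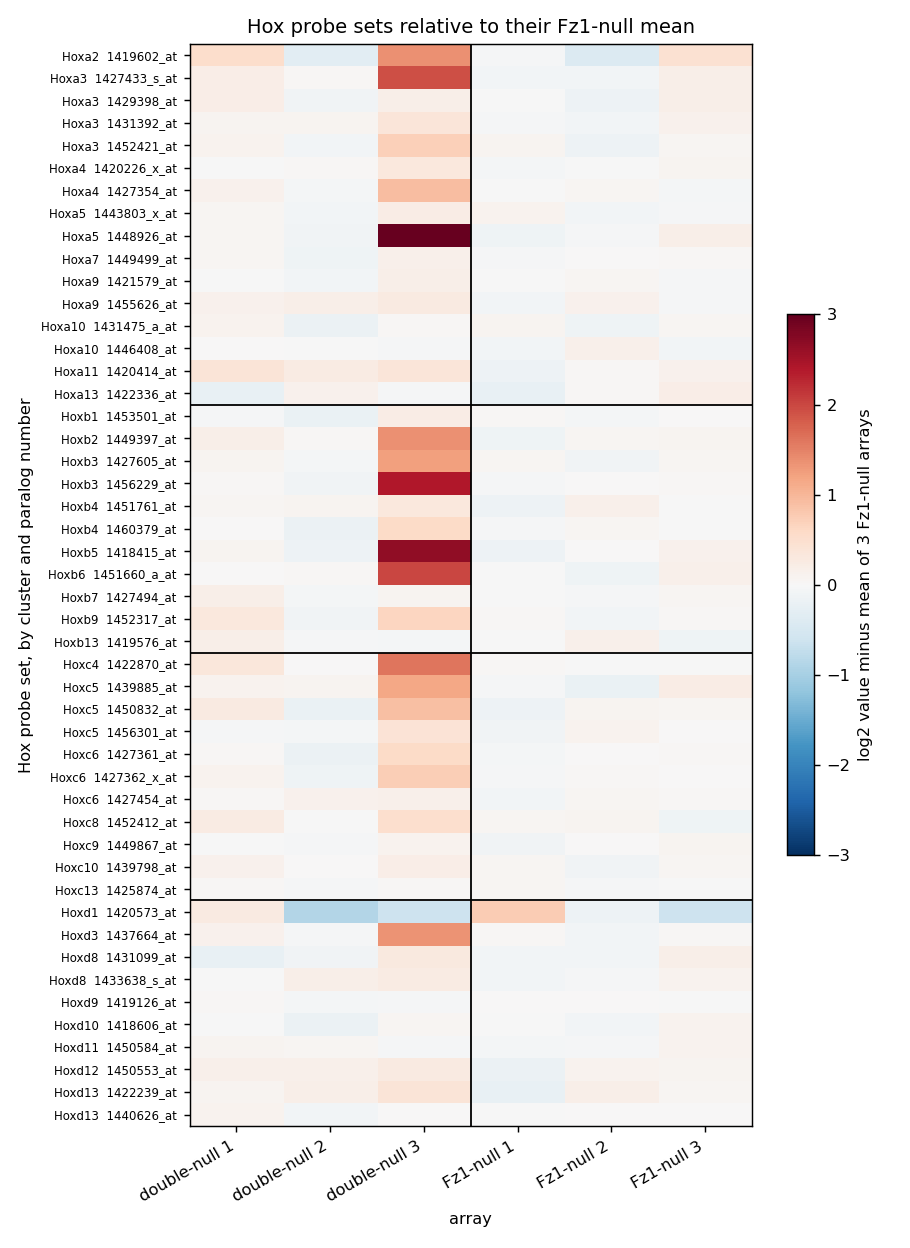
Each row is one of the 48 Hox probe sets, ordered by cluster and paralog number, each column an array, and the colour is the log2 value minus the mean of the 3 Fz1-null arrays. The red cells gather in the column of double-null array 3 and in the rows of paralogs 2 to 6, while Hoxd1 differs among arrays of both groups.

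In the pair numbered 3 most of the larger differences lay among paralogs 2 to 6, and not in paralog 1. Paralogs 2 to 6, a range drawn after the values were seen, had 24 probe sets, of which 17 were at least 0.5 higher in double-null array 3 than in Fz1-null array 3, with a median difference of 0.88. Paralogs 7 to 13 had 22 probe sets, of which 2 reached 0.5, with a median of 0.093. The 2 probe sets of paralog 1, in neither range, differed by 0.205 (Hoxb1) and 0.0079 (Hoxd1). The same ranges had medians of 0.12 and 0.098 in the pair numbered 1 and of 0.0016 and -0.019 in the pair numbered 2. Over the 3 pairs, the 24 probe sets of paralogs 2 to 6 had a median mean difference of 0.32, and of 0.062 without the arrays numbered 3. By cluster, the pair numbered 3 gave medians of 0.24 for Hoxa (16 probe sets), 0.61 for Hoxb (11), 0.55 for Hoxc (11) and 0.066 for Hoxd (10), and 6 of the 10 Hoxd probe sets were of paralogs 9 to 13. Counts at or above 1 were 2 for Hoxa, 5 for Hoxb, 1 for Hoxc and 1 for Hoxd.

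**Figure D2:**
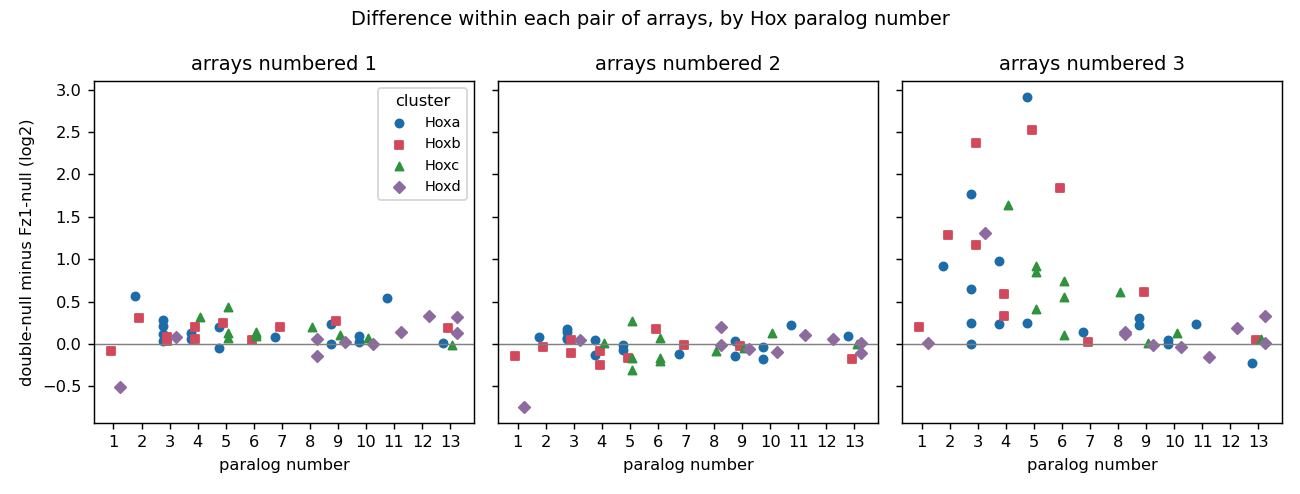
Each point is a Hox probe set, with its paralog number on the horizontal axis and the double-null minus Fz1-null difference (log2) within the arrays of one number on the vertical axis, marked by cluster. The arrays numbered 3 show differences up to 2.92 among paralogs 2 to 6 and none above 0.62 from paralog 7 on, and in the arrays numbered 1 and 2 no point exceeds 0.57.

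Among the anterior genes, paralogs 1 to 3 act in the hindbrain and in the pharyngeal arches behind the first. Hoxa2, which sets the identity of the second arch, read 5.87, 5.02 and 6.72 in double-null arrays 1, 2 and 3, against 5.31, 4.93 and 5.80 in Fz1-null arrays. It was higher in the double-null array of each pair, yet the groups overlapped, and array 3 was the highest of its group in both genotypes. The mean difference was 0.53 (SE 0.40), and 0.33 without both arrays numbered 3. Hoxb2, a gene of hindbrain segments that guides facial motor neuron development, read 6.90, 6.76 and 8.09 in double-null arrays, against 6.59, 6.80 and 6.81 in Fz1-null arrays. Double-null array 3 alone stood above the rest, and the mean difference of 0.52 (SE 0.32, limma adjusted p = 1.00) was 0.097 without it.

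Hoxb3 and Hoxd3 gave the same picture. The Hoxb3 probe set 1456229_at read 5.61, 5.47 and 7.97 in double-null arrays and 5.53, 5.57 and 5.60 in Fz1-null arrays, so 5 arrays lay within 5.47 to 5.61. Its brighter probe set, 1427605_at, read 7.40, 7.24 and 8.55 in double-null arrays and 7.36, 7.197 and 7.38 in Fz1-null arrays. The mean differences of 0.78 (SE 0.59) and 0.42 (SE 0.31) became -0.029 and 0.0088 without double-null array 3. The excess of double-null array 3 over Fz1-null array 3 was 5.19-fold by the first and 2.25-fold by the second. Hoxd3, which patterns the first neck vertebra, read 5.09, 4.94 and 6.31 in double-null arrays, against 5.01, 4.89 and 4.999 in Fz1-null arrays, 2.49-fold higher in the pair numbered 3. Its mean difference of 0.48 (SE 0.32) was 0.063 without both arrays numbered 3.

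Hoxa3, needed for the thymus and parathyroid, was read by 4 probe sets that differed among themselves. Probe set 1427433_s_at read 4.42, 4.26 and 6.14 in double-null arrays and 4.14, 4.12 and 4.38 in Fz1-null arrays, 3.40-fold higher in the pair numbered 3. Its mean difference was 0.73 (SE 0.45), and 0.21 without both arrays numbered 3. The other Hoxa3 probe sets differed in that pair by 0.65 (1452421_at), 0.25 (1431392_at) and -0.0017 (1429398_at). In RefSeq the Hoxa3 locus spans that of Hoxa4. The Hoxa3 start behind the window printed above lies upstream of the Hoxa5 start, on the same strand. Which transcript form each probe set reads was not tested. Hoxb1, a gene of one hindbrain segment, differed by at most 0.205 in any pair.

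Hoxd1 had the lowest mean difference of all members. This gene, known from pain-sensing neurons of mice, read 6.93, 5.78 and 6.05 in double-null arrays, against 7.44, 6.53 and 6.04 in Fz1-null arrays. It was lower in the double-null array of the pairs numbered 1 and 2 (-0.51 and -0.75) and level in the pair numbered 3 (0.0079), with a mean difference of -0.42 (SE 0.40, limma adjusted p = 1.00, and 0.966 with the replicate block). Leaving out single arrays moved that difference between -0.76 and -0.030. The other 7 members that were lower had mean differences no further from 0 than -0.043. Neuron marker genes had pair medians of -0.34, -0.098 and 0.13 for the arrays numbered 1, 2 and 3, and their part in the Hoxd1 values was not tested.

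The central genes, paralogs 4 to 8, mark the neck and thorax, and all 20 of their probe sets were higher in double-null array 3 than in Fz1-null array 3. Hoxa5, which patterns the lower neck and the lung, had the widest difference of any of the 45037 probe sets in that pair. A Hoxa5 difference was among the values on which the family was chosen, so that rank is a description only. The Hoxa5 probe set 1448926_at read 4.68, 4.50 and 7.70 in double-null arrays, against 4.48, 4.57 and 4.78 in Fz1-null arrays, 7.56-fold higher in the pair numbered 3. The mean difference of 1.02 (SE 0.76) became -0.020 without double-null array 3, and the double-null SD was 1.80, against 0.15 in the Fz1-null group. The other Hoxa5 probe set, 1443803_x_at, read 8.10, 7.95 and 8.25 in double-null arrays and 8.14, 7.96 and 7.995 in Fz1-null arrays, a mean difference of 0.065 (SE 0.10), and of -0.0088 without double-null array 3. The Hoxa5 probe sets thus differed in level and in the size of the genotype difference.

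The paralogs of Hoxa5 lay on the same side. Hoxb5, expressed in the developing gut and its nerves, read 6.33, 6.09 and 8.89 in double-null arrays, against 6.09, 6.26 and 6.37 in Fz1-null arrays, 5.74-fold higher in the pair numbered 3 and 0.86 higher in the mean (SE 0.65). For Hoxc5 the probe set 1439885_at read 4.78, 4.75 and 5.83 in double-null arrays and 4.65, 4.48 and 4.91 in Fz1-null arrays. Only double-null array 3 lay above 5, and the mean difference of 0.44 (SE 0.28) was 0.087 without it and 0.20 without both arrays numbered 3. The probe set 1450832_at read 5.63, 5.14 and 6.26 in double-null arrays and 5.19, 5.44 and 5.41 in Fz1-null arrays, with double-null array 2 the lowest of all 6, and its mean difference of 0.33 (SE 0.25) was 0.032 without double-null array 3. The brightest, 1456301_at, read 7.25, 7.23 and 7.71 in double-null arrays and 7.18, 7.39 and 7.29 in Fz1-null arrays. In the pair numbered 2 the difference was below 0 in 5 of the 6 probe sets of this paralog group, and without double-null array 3 the mean differences of Hoxb5 and of the Hoxc5 probe set 1456301_at were -0.028 and -0.048.

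Hoxb6 and Hoxc4 completed the list of 9 probe sets past 1 log2 unit. Hoxb6, a gene of the thorax, read 6.26, 6.28 and 8.24 in double-null arrays, against 6.22, 6.10 and 6.40 in Fz1-null arrays, 3.585-fold higher in the pair numbered 3, with a mean difference of 0.69 (SE 0.48) that was 0.11 without both arrays numbered 3. Hoxc4, a gene of the neck, read 6.58, 6.25 and 7.86 in double-null arrays, against 6.27, 6.23 and 6.22 in Fz1-null arrays, 3.11-fold higher, with a mean difference of 0.65 (SE 0.36) that was 0.16 without both arrays numbered 3. In each of the 9, double-null array 3 was the highest of the 6 arrays by at least 1 (0.0555% of all probe sets). In the pair numbered 1 each of the 9 was also higher, by 0.040 (Hoxb3 by 1427605_at) to 0.31 (Hoxc4). In the pair numbered 2 the differences ran from -0.17 (Hoxb5) to 0.18 (Hoxb6).

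**Figure D3:**
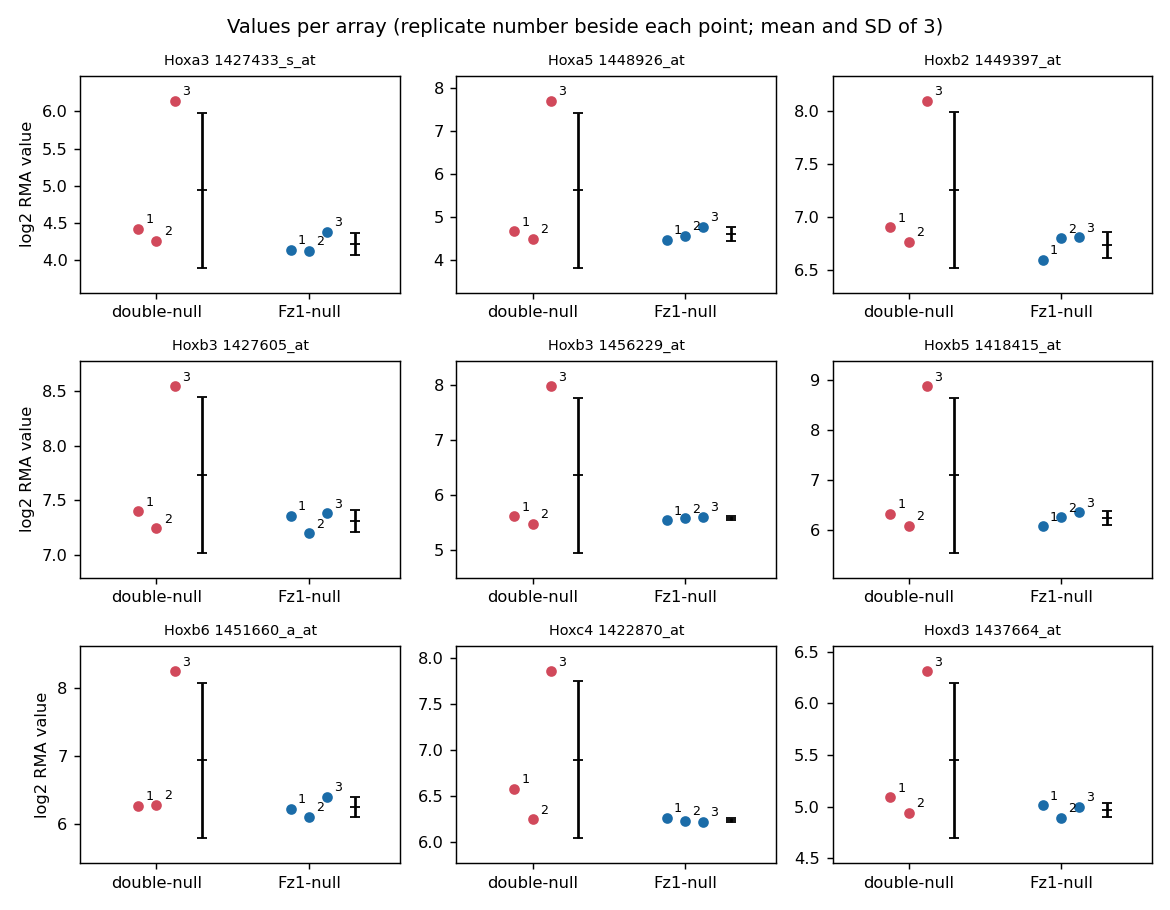
The log2 RMA values of the 9 Hox probe sets with a difference of at least 1 in the arrays numbered 3 are shown per array, double-null left of Fz1-null, with the replicate number beside each point and the mean and SD of 3 arrays as a bar; the vertical axes do not start at 0 and differ between panels. In every panel double-null array 3 lies alone at the top, from 6.14 for Hoxa3 to 8.89 for Hoxb5.

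The other central members differed less. Hoxa4, a gene of the neck, read 3.84, 3.65 and 4.65 in double-null arrays and 3.72, 3.78 and 3.67 in Fz1-null arrays by probe set 1427354_at, at the low end of the scale. Its other probe set, 1420226_x_at, was 0.23 higher in the pair numbered 3. Hoxb4, a gene of the neck also known from blood stem cells, read 6.23, 6.05 and 6.80 in double-null arrays and 6.18, 6.29 and 6.21 in Fz1-null arrays by 1460379_at, and was 0.33 higher in that pair by 1451761_at. The 3 probe sets of Hoxc6, active in the thorax and forelimb region, differed there by 0.74, 0.55 and 0.11. Hoxc8, which specifies motor neurons of the forelimb level in mice, differed by 0.62 from a low reading of 3.61 in Fz1-null array 3. Hoxa7, Hoxb7 and both Hoxd8 probe sets lay between 0.018 and 0.14. The brightest Hoxc6 probe set, 1427361_at, read 7.52, 7.29 and 8.06 in double-null arrays, against 7.43, 7.49 and 7.51 in Fz1-null arrays.

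Posterior genes, paralogs 9 to 13, pattern the lower trunk, limbs and genitalia. Their 17 probe sets had a median difference of 0.11 in the pair numbered 1, of -0.030 in the pair numbered 2 and of 0.049 in the pair numbered 3, and 0 of them had double-null array 3 highest by 0.5 or more. Hoxb9, a gene of the ribs, read 6.53, 6.11 and 6.88 in double-null arrays, against 6.26, 6.14 and 6.27 in Fz1-null arrays, and was the only posterior member at least 0.5 higher in that pair. Hoxa13 (-0.23) and Hoxd11 (-0.15) were lower there. Hoxd13, a gene of the digits, was 0.32 and 0.33 higher in the pairs numbered 1 and 3 and level in the pair numbered 2 (0.0065) by 1422239_at, and differed by at most 0.13 by 1440626_at. Hoxd9 read 6.82, 6.72 and 6.74 in double-null arrays, against 6.79, 6.78 and 6.76 in Fz1-null arrays, all within 6.72 to 6.82. Hoxa13, a gene of the hand, foot and genitalia, read 5.44, 5.79 and 5.62 in double-null arrays and 5.44, 5.70 and 5.85 in Fz1-null arrays. Hoxd10, which specifies lumbar motor neurons, read 3.65, 3.50 and 3.74 in double-null arrays and 3.65, 3.58 and 3.78 in Fz1-null arrays. Hoxa10, known from the lumbar spine and uterus, read 4.52, 4.49 and 4.48 in double-null arrays and 4.43, 4.67 and 4.44 in Fz1-null arrays by 1446408_at. In each of these the groups overlapped. Hoxa13, Hoxd10, Hoxa10 by 1446408_at and Hoxd9 had mean differences of -0.043, -0.043, -0.017 and -0.015, each below its SE, and the sign of each turned when one array or another was left out.

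Groups without overlap were found in 3 members, all posterior and all higher in double-null palates. Over all probe sets 2.79% had the double-null arrays all above and 1.73% all below. Hoxa11, a gene of the forearm and kidney, read 6.28, 6.14 and 6.26 in double-null arrays, against 5.73, 5.92 and 6.02 in Fz1-null arrays, a difference of 0.33 (SE 0.10, limma adjusted p = 1.00). Its pair differences of 0.55, 0.22 and 0.23 were largest in the pair numbered 1, and its mean difference was 0.38 without both arrays numbered 3. Hoxd12 read 5.43, 5.44 and 5.54 in double-null arrays, against 5.11, 5.39 and 5.36 in Fz1-null arrays. The dimmer Hoxa9 probe set, 1455626_at, read 4.94, 4.97 and 5.07 in double-null arrays, against 4.71, 4.93 and 4.76 in Fz1-null arrays, while the brighter one, 1421579_at, differed by 0.029. These 3 were singled out after their values were seen.

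Spread between replicates of a group was wider in double-null palates for 34 of the 48 members. The same count was not made over all probe sets, where double-null array 3 also stood apart. It is therefore not read as a trait of the Hox genes. The median SD of a member was 0.175 in the double-null and 0.105 in the Fz1-null group (n = 3 arrays each). Summarised per array, the 20 central probe sets had a median value of 5.93, 5.84 and 6.88 in double-null arrays 1, 2 and 3, against 5.74, 5.83 and 5.89 in Fz1-null arrays. The 17 posterior probe sets had 5.44, 5.79 and 5.62 in double-null arrays, against 5.44, 5.70 and 5.84 in Fz1-null arrays. Double-null array 3 was the highest of the 6 for 35 of 48 members (24.6% of all probe sets), and by at least 0.5 for 17 (0.309%).

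Some marker lists also differed in the pair numbered 3, with muscle genes higher and epithelial genes lower in the double-null array. Their part in the Hox differences was not tested. In bulk tissue, a change in the number of cells of a type and a change in RNA per cell cannot be told apart. Skeletal muscle genes, such as Myog and Myh3, were higher in that pair in 15 of 16, with a median of 0.63, and their summed linear level was 13107 in double-null array 3, 6957 and 6892 in double-null arrays 1 and 2, and 7836 to 8168 in Fz1-null arrays. Epithelial genes were higher in 0 of 11 there (median -0.47). Their sum was 6207 in double-null array 3, 7210 and 8832 in double-null arrays 1 and 2, and 7460 to 8985 in Fz1-null arrays. Neuron genes were higher there in 10 of 10, with a median of 0.13. Their sum was 17182 in double-null array 3, 16716 and 11084 in double-null arrays 1 and 2, and 12340 to 20867 in Fz1-null arrays. RMA values have no zero, so no marker could be called absent.

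Markers of the palate itself were read on all arrays. Palatal mesenchyme genes, Msx1, Osr2 and Pax9 among 13 measured, were higher in 1 of 13 in the pair numbered 3 (median -0.33, beside 0.0036 and -0.0090 in the pairs numbered 1 and 2). Their sum was 11096 in double-null array 3, 13551 and 12809 in double-null arrays 1 and 2, and 13433 to 13879 in Fz1-null arrays. Genes of heart, foregut and trunk mesoderm had a pair 3 median of 0.11 (9 of 11 higher), with sums of 1735 to 2029 in double-null and 1704 to 2042 in Fz1-null arrays. Genes of mandible and tongue mesenchyme had -0.19 (2 of 5 higher), with sums of 1404 to 1645 in double-null and 1510 to 1720 in Fz1-null arrays. Neural progenitor genes had -0.17 (2 of 7 higher), with sums of 3119 to 3494 in double-null and 3276 to 3309 in Fz1-null arrays. In each of these lists the lowest double-null sum was that of double-null array 3. Cartilage and bone genes had -0.12 (2 of 5 higher), with sums of 8805 to 16328 in double-null and 9476 to 16232 in Fz1-null arrays. Schwann cell, endothelial, erythroid and macrophage genes had medians of 0.060, -0.026, -0.025 and 0.0047. The median of all 18193 genes in that pair was -0.012.

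**Figure D4:**
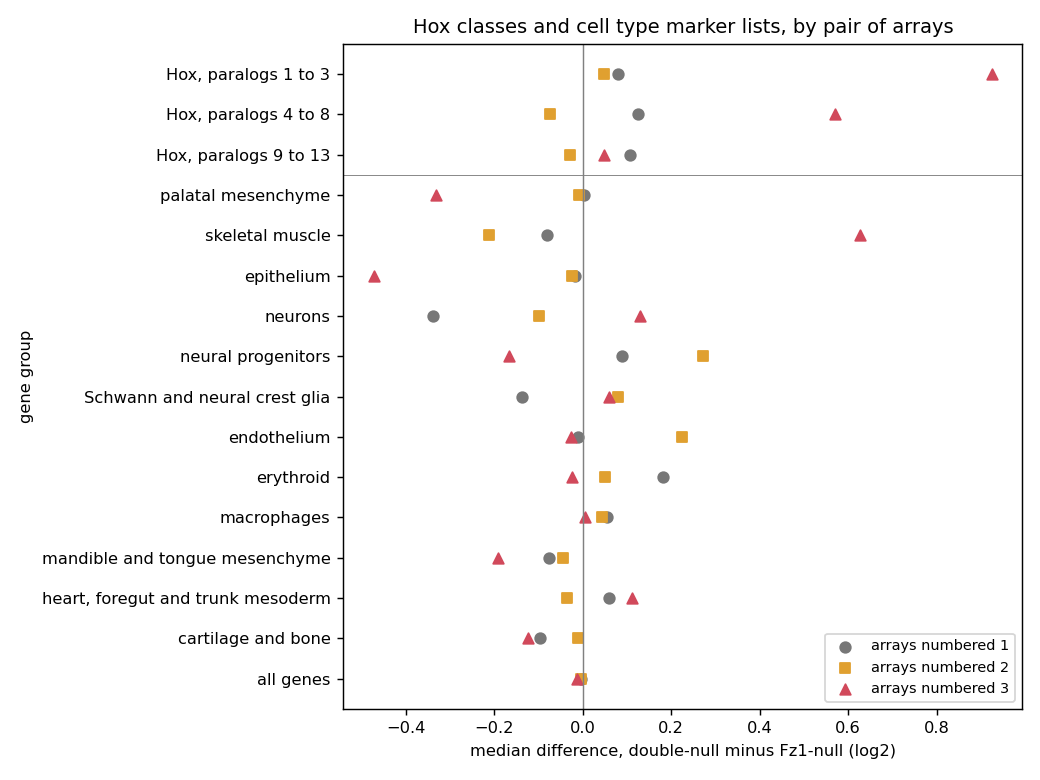
Median double-null minus Fz1-null difference (log2) of Hox classes (probe sets) and of cell type marker lists (1 probe set per gene) for the arrays of each number. In the arrays numbered 3 the Hox genes of paralogs 1 to 3 (0.92) and 4 to 8 (0.57) and skeletal muscle genes (0.63) lie to the right, and epithelial (-0.47) and palatal mesenchyme genes (-0.33) to the left, while Hox paralogs 9 to 13 lie at 0.049.

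Genes that act with or on the Hox clusters were read as lists of the pathway, and 0 members of any list passed the test. Of the TALE homeodomain cofactors, which bind DNA together with Hox proteins, 8 were measured, 3 higher and 5 lower, and 0 passed. Meis1 averaged 9.36 in double-null and 9.22 in Fz1-null palates, a difference of 0.14 (SE 0.10) that was 0.018 without both arrays numbered 3. Pbx3 differed by 0.058 (SE 0.10) and Pknox1 by -0.059 (SE 0.08). Polycomb and Trithorax genes, which keep Hox genes silent or active, were higher in 3 and lower in 27 of 30, with a median of -0.057 and 0 past the test. By pair, 10, 17 and 2 of the 30 were higher in the arrays numbered 1, 2 and 3, and without both arrays numbered 3 the count was 10 of 30 and the median -0.032. Their values included Kdm6b, a demethylase of the Polycomb mark, at -0.18 (SE 0.10), Phf19 at 0.095 (SE 0.081) and Kmt2b at -0.086 (SE 0.088). Over all genes 45.7% were higher, with a median of -0.0079.

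Upstream regulators, among them the Cdx genes and the enzymes and receptors of retinoic acid, which switches on anterior Hox genes, were higher in 7 and lower in 12 of 19 measured, and 0 passed. Cyp26b1, which breaks down retinoic acid, differed by -0.19 (SE 0.12) and by -0.094 without both arrays numbered 3, the receptor Rxrg by 0.095 (SE 0.080) and the binding protein Crabp2 by -0.083 (SE 0.075). Of the genes within or beside the clusters that encode no Hox protein, 16 were measured, 9 higher and 7 lower, with 0 past the test. The antisense gene Hoxd3os1 differed by 0.34 (SE 0.29) by 1460056_at, with 0.90 in the pair numbered 3 and 0.061 without it, while its other probe set, 1430263_at, differed by 0.014. Skap1, beside the Hoxb cluster, differed by 0.20 (SE 0.11), with 0.48 in the pair numbered 3 and 0.055 without it. Smug1 differed by 0.13 (SE 0.093), with 0.38 in the pair numbered 3 and 0.0096 without it. The ParaHox genes Gsx1, Gsx2 and Pdx1, relatives of the Hox genes outside the clusters, differed by 0.27 (SE 0.094), 0.065 (SE 0.14) and 0.040 (SE 0.085), 3 of 3 higher and 0 past the test. Without both arrays numbered 3 these were 0.26, 0.014 and -0.0069.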

How the data were processed

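Palate RNA of 3 double-null and 3 Fz1-null samples was read on Affymetrix arrays. The authors deposited log2 probe set values made with RMA, per the submitters' processing notes, with no software version stated there. Another table the authors deposited has, per the file headers, a log2 fold change, a signed fold score and a p-value without adjustment. The log2 fold change there was the group difference with the sign turned (largest deviation 4.93e-08); the table served only for that check and for counting its p-values after adjustment, of which 0 passed. All differences here are double-null minus Fz1-null.

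Of 45101 probe sets 64 controls were left out. A single symbol was listed for 34945, several for 932 and none for 9160. Hox members follow the platform symbols; gene lists used 1 probe set per gene (highest mean), with symbols updated by Entrez identifier for 34741 single-symbol probe sets to RefSeq GRCm38.p6. The test was limma 3.58.1 in R 4.3.3 (lmFit, eBayes, genotype as the only term), two-sided, with Benjamini-Hochberg adjusted p under 0.05 over 45037 probe sets. It was tested on simulated data. An exact permutation test of 3 against 3 cannot go below 0.1 and was not run. SE is limma's moderated one. The number of arrays limits the precision.

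Members, lists and tests were chosen with earlier results of these data known. Named in full were members with the 5 largest differences in each direction, with a pair difference of at least 1, of paralog group 5, or brightest in their cluster, then Fzd1, Fzd2 and up to 3 genes per list by p; other members with values were picked after these were seen. Numbers 1 to 3 stand in both groups, with nothing stated about what equal numbers have in common. Deviations from group means correlated at 0.63, 0.44 and 0.63 for numbers 1, 2 and 3, so numbers were taken as pairs, and a fit with the number as a block was run beside the main one. Alternatives were repeated quantile normalisation, centring on array medians, a filter on dim probe sets, eBayes with trend or robust, array weights, log2 of the linear value plus 32, gene-level values, probe set types, an adjusted p of 0.1 and leaving out each array. Leaving out both arrays numbered 3 was added after the data were seen.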

Additional observations from a re-analysis of the deposited data

Results flagged for a closer look

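Probe sets whose annotation gives several Hox genes entered none of the comparisons above. The probe set of Hoxb8 and Hoxb7 (1452493_s_at) read 6.73 in double-null array 3, above the highest Fz1-null value of 5.196, and 5.197 and 4.88 in double-null arrays 1 and 2. A probe set of Hoxd4 and Hoxd3 (1421537_at) read 7.57 in double-null array 3, above the highest Fz1-null value of 6.54. Both stood at least 0.5 above every Fz1-null array, and neither of the other double-null arrays did. The other probe set of Hoxd4 and Hoxd3, 1450209_at, did not stand apart: it read 5.65 in double-null array 3, 0.058 above the highest Fz1-null value. Among antisense genes, Hoxb5os read 8.26 in double-null array 3 and 7.69 to 7.86 on the other arrays, and the Hoxa11os probe sets differed by 0.13 in the pair numbered 3.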

How the results depend on the processing

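No Hox probe set passed the adjusted p threshold in the main fit or under any alternative run, an adjusted p of 0.1 included. Over all probe sets the count was 0 in the main fit and 3 with the replicate block, with or without the arrays numbered 3; the block changed no call of a Hox member. Of the members, 40 were higher in double-null palates in the main fit, 7 of 7 when dim probe sets were filtered out and 26 of 33 with 1 probe set per gene, both from fewer probe sets, and 29 to 45 when single arrays were left out. The median difference of 0.14 kept its sign throughout, at 0.023 to 0.20 when single arrays were left out. The 3 members without overlap became 0 among the brighter probe sets, 4 to 20 when single arrays were left out (20 without double-null array 2, 7 without double-null array 1, and 8 and 6 without Fz1-null arrays 3 and 2) and 10 without both arrays numbered 3, where fewer arrays make overlap rarer. Leaving out a single array likewise makes overlap rarer for any probe set. The share of all probe sets without overlap was not counted with arrays left out. The counts from 4 to 20 are therefore not read as a trait of the Hox genes. Of 19 named differences 9 kept their sign under each alternative and 10 turned under at least 1. Without both arrays numbered 3, the Hoxa5 probe set 1443803_x_at gave -0.028, Hoxa13 0.050, Hoxb3 by 1456229_at -0.013, Hoxc5 by 1456301_at -0.045 and Hoxc6 by 1427361_at -0.052. Leaving out single arrays gave ranges of -0.0088 to 0.14 for Hoxa5 by 1443803_x_at, -0.020 to 1.58 by 1448926_at, -0.060 to 0.064 for Hoxa10, -0.15 to 0.052 for Hoxa13, -0.029 to 1.22 for Hoxb3, -0.028 to 1.37 for Hoxb5, -0.048 to 0.19 for Hoxc5, -0.069 to 0.32 for Hoxc6, -0.042 to 0.0031 for Hoxd9 and -0.10 to 0.024 for Hoxd10. The cause was not tested beyond these. Dim probe sets limit what differences and folds can show, among them those of Hoxa4, Hoxa10, Hoxc8, Hoxd10, Hoxa3 by 1427433_s_at, Hoxa5 by 1448926_at and Hoxc5 by 1439885_at.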

Other observations

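Among the probe sets that stood out most on double-null array 3, many were Hox. The family was chosen with differences on these arrays known, so this share is a description only. Of the 139 probe sets highest there by at least 0.5, 17 were Hox members, and of the 11095 highest by any margin, 35 were. Of all 45037 probe sets, 25 were highest on that array by at least 1 log2 unit, and 9 of them were Hox members, 2 were annotated to several Hox genes, 2 were unnamed and 12 were of other named genes. The names were picked out with the values known. Lhx1, a LIM homeodomain factor of neurons and the kidney, read 5.01, 5.04 and 6.61 in double-null arrays, against 4.52, 4.84 and 4.77 in Fz1-null arrays. Neurod6, a neuronal bHLH factor, read 3.86, 3.75 and 5.86 in double-null arrays, against 4.07, 3.67 and 3.64 in Fz1-null arrays, and the glutamate transporter gene Slc1a2 read 5.94, 6.06 and 7.76 in double-null arrays, against 5.77, 5.74 and 6.11 in Fz1-null arrays. Lamp5, a membrane protein gene of neurons, reached 8.98 on that array and at most 6.72 on the other 5, and Skor1, a corepressor gene of the dorsal spinal cord, 6.36 and at most 4.58. Smpx, a muscle protein gene, reached 6.83 and at most 5.79. Chl1, C1qtnf3, Rab3c, Atp1b4, Tmem130 and Mir124-2hg made up the rest. These names do not stand for a cell type. The neuron marker list summed to 17182 on double-null array 3, within the 12340 to 20867 of Fz1-null arrays. In the pair numbered 3 neuron genes were higher in 10 of 10 (median 0.13) and neural progenitor genes in 2 of 7 (median -0.17).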
